A study of Mus musculus with 3 samples.

Results

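Trem2-positive cells were examined in a skin graft and in a macrophage culture treated with vitamin D3 (VD3). The cells were selected on measured values: at least 2 unique molecular identifiers (UMIs, each counting 1 captured RNA molecule) of *Trem2*, less than 2% of gene UMIs from *S100a8* and *S100a9*, and 0 UMIs of *Cd3d*, *Cd3e*, *Cd3g*, *Mki67*, and *Top2a*. Barcodes needed at least 300 genes, fewer than 100000 gene UMIs, and less than 10% mitochondrial UMIs to be kept. These criteria were met by 363 of 2144 kept cells of the graft (16.9%, 95% interval 15.4 to 18.6%) and 1765 of 8825 of the treated culture (20.0%, 19.2 to 20.9%), 2128 of 10969 in all. In the untreated culture, read by the same rule as a reference, they were met by 1089 of 7257 cells (15.0%, 14.2 to 15.8%).

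The graft library (hSTSG) held mouse cells from subcutaneous implants of human split-thickness skin in C57/BL6 mice. The implants of 5 mice were taken out on day 14 and pooled. The paper's methods describe collagenase digestion of such implants under flow cytometry. For both culture libraries, bone marrow of wild-type mice was grown with GM-CSF for 7 days. One culture then received VD3, as 1,25-dihydroxycholecalciferol at 1 µM, for 24 hours (VD-Mac), and the other did not (Co-Mac). Each condition was 1 droplet library, so that mouse, library, tissue source, dissociation, and treatment cannot be told apart and no test was made. Only mouse genes were counted, and whether human reads of the graft were assigned to them was not tested.

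TREM2 is a lipid-binding receptor of macrophages, microglia, and osteoclasts that signals through the adaptor TYROBP and the kinase SYK. Macrophages that carry it are known from lipid-laden and injured tissues, where they take up lipoproteins and dying cells and express genes for lysosomes and lipid handling. CSF1R is the receptor for the growth factor that most tissue macrophages depend on, whereas GM-CSF acts through a separate receptor with the CSF2RB chain.

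The selected cells held 6661730 UMIs in the graft, 28784803 in VD-Mac, and 22257303 in Co-Mac, with a median of 15096, 15036, and 19418 per cell. Median mitochondrial shares were 3.53%, 6.54%, and 6.02%, and median shares of cytosolic ribosomal protein genes 11.0%, 25.2%, and 16.8%. The graft and VD-Mac cells were thus alike in median depth, although 22 of 363 and 184 of 1765 had fewer than 5000 UMIs, while RNA of ribosomal protein genes took a larger share in VD-Mac. Libraries shared 7 barcodes (graft and VD-Mac), 7 (graft and Co-Mac), and 19 (both cultures), and 0 of the shared barcodes were selected in both. At the threshold, cells with exactly 1 *Trem2* UMI numbered 146 in the graft, 939 in VD-Mac, and 523 in Co-Mac, and those with exactly 2 numbered 68, 423, and 242. *Csf1r* lay at 402 and 447 UMIs per 1000000 gene UMIs (CPM, over the summed cells) in these graft cells, at 20.7 and 25.3 in those of VD-Mac, and at 60.9 and 124 in those of Co-Mac.

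The label was checked against macrophage markers after each cell with at least 5000 UMIs was thinned to 5000 (341 graft, 1581 VD-Mac, and 1056 Co-Mac cells). A *Csf1r* UMI was then found in 77.7% (72.9 to 82.0) of graft cells, 39.8% (37.4 to 42.2) of VD-Mac cells, and 59.7% (56.6 to 62.6) of Co-Mac cells. Without thinning, the shares were 91.2%, 51.3%, and 78.7%. For *Adgre1*, which encodes F4/80, the thinned shares were 59.8%, 23.4%, and 16.4%. *C1qa*, a chain of complement C1q, was found in 74.5%, 21.4%, and 25.9%. At 5000 UMIs per cell, most graft cells carried each of these macrophage markers beside *Trem2*, and most VD-Mac cells did not, although for *Csf1r* this turned under stricter *Trem2* limits (54.2% of VD-Mac cells with at least 4 UMIs). Shares were also read in other cells of each library as a comparison, namely the 183 graft cells with at least 2 Cd3 UMIs (median depth 5877.5 before thinning) and the *S100a8*- and S100a9-rich cells of the cultures (362 in VD-Mac, median 5295, and 332 in Co-Mac, median 6739). There, *Csf1r* was found in 4.92%, 30.1%, and 34.9%, and *Adgre1* in 3.28%, 23.5%, and 24.7%. Culture cells with no *Trem2* UMI that met the other criteria had an *Adgre1* UMI in 3% (VD-Mac) and 2.26% (Co-Mac). The S100-rich cells are myeloid and may express these genes, so they are a comparison and no measure of stray RNA.

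**Figure D1:**
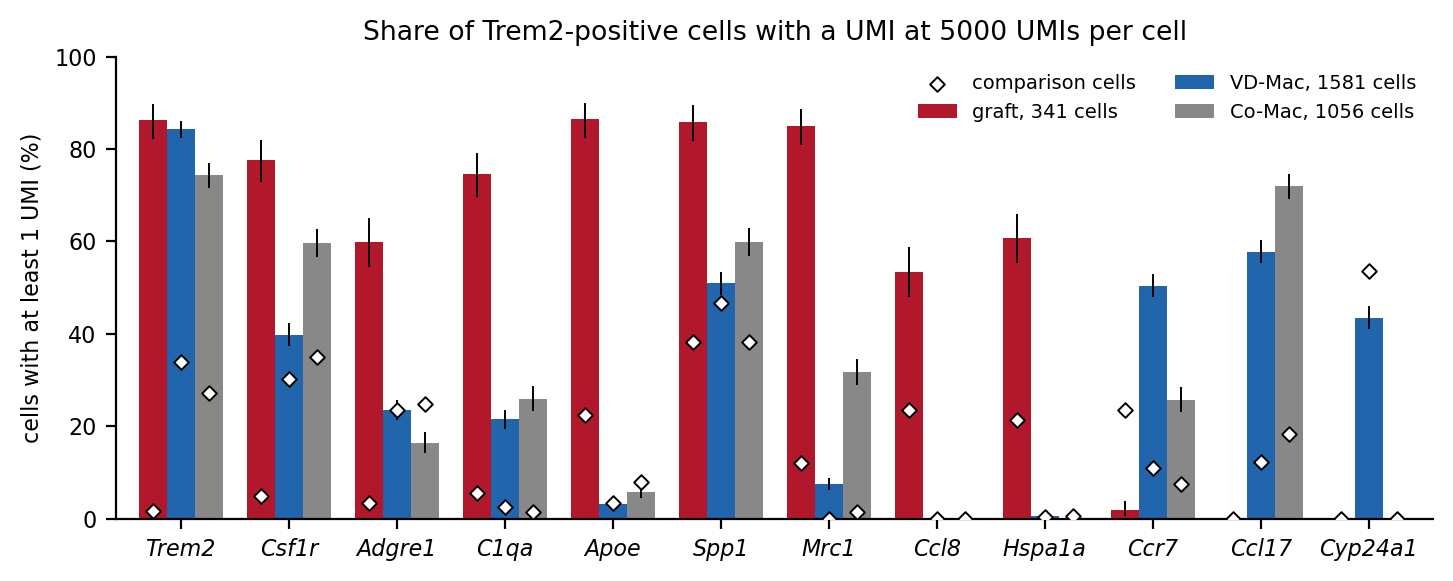
Percent of Trem2-positive cells (vertical axis) with at least 1 UMI of each gene (horizontal axis) after thinning to 5000 UMIs, in the graft, VD-Mac, and Co-Mac. Error bars are exact 95% binomial intervals, and diamonds give the comparison cells of the same library, Cd3-positive in the graft and *S100a8*- and S100a9-rich in the cultures. Among Trem2-positive cells, *Apoe*, *Mrc1*, and *Ccl8* were common in the graft, while *Ccl17* was common in both cultures and *Ccr7* and *Cyp24a1* in VD-Mac.

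The VD-Mac cells fell into 2 kinds by *Ccr7*, the receptor that guides dendritic cells to lymph nodes. No *Ccr7* UMI was found in 863 of 1765 VD-Mac cells (48.9%, 46.5 to 51.3%), whereas 722 (40.9%, 38.6 to 43.2%) had 9 or more. Between them lay 98 cells with 1 UMI and 82 with 2 to 8. In Co-Mac, 748 of 1089 cells (68.7%, 65.8 to 71.4%) had none and 226 (20.8%, 18.4 to 23.3%) had 9 or more. In the graft 351 of 363 cells had none, and 0 had 9 or more, which allows (as 3 counts of the total) a share of cells with that many UMIs of up to 0.826%. Across the 13 markers listed for dendritic cells, the summed level was 45.9, 959.7, and 509 CPM in the graft, VD-Mac, and Co-Mac, and *Ccr7* was the most abundant in VD-Mac. Only *Ccr7*, *Fscn1*, and *Irf4* reached 50 CPM on one side, each of them in VD-Mac. *Itgae* had 0 UMIs in graft cells and *Siglech* in VD-Mac cells, while *Flt3*, which defines conventional dendritic cells, had a UMI in 8 graft cells and 4 VD-Mac cells. *Zbtb46*, another gene of that lineage, had one in 6 and 471.

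**Figure D2:**
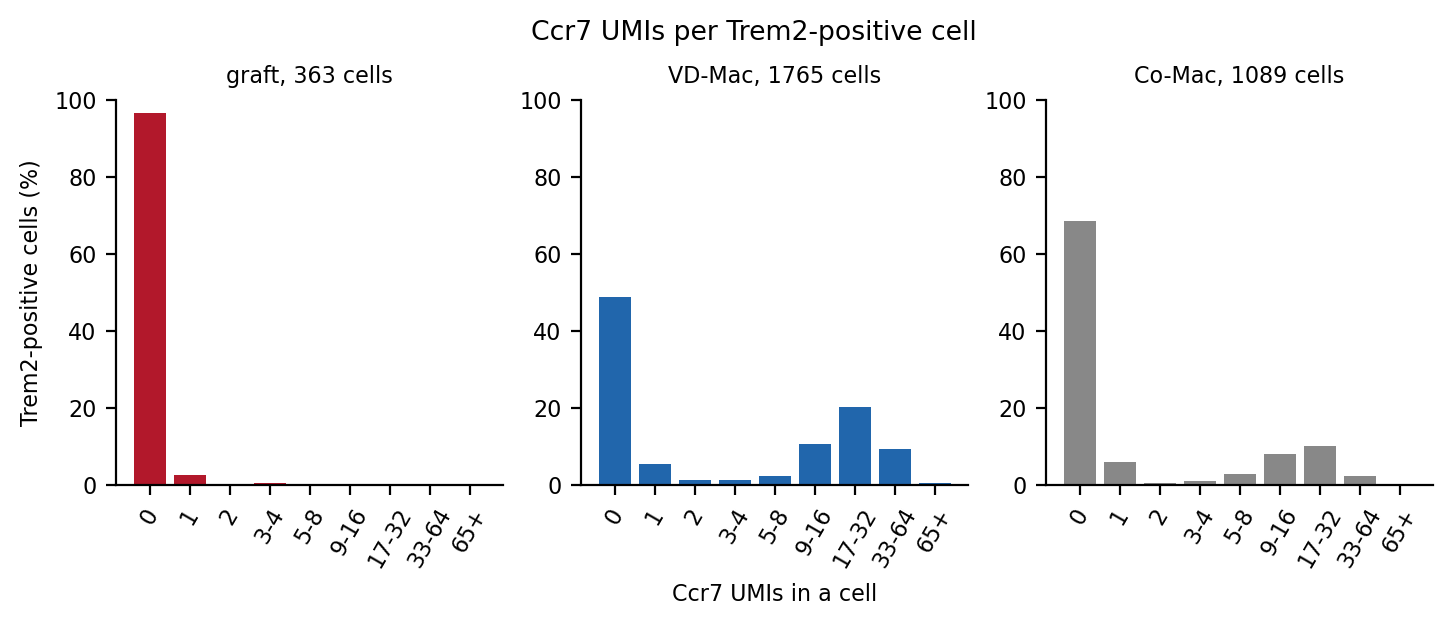
Percent of Trem2-positive cells (vertical axis) by the number of *Ccr7* UMIs in the cell (horizontal axis, in bins), for the graft, VD-Mac, and Co-Mac. Most graft cells had 0 UMIs, while cells of both cultures lay either at 0 or 1 or mostly at 9 and above.

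Macrophage genes differed between these kinds of VD-Mac cell. *Csf1r* reached 281 CPM in the cells with no *Ccr7* UMI and 44.2 in the 804 cells with 2 or more. For *C1qa* the levels were 517 and 89.0 CPM, and for *Lyz2*, the lysozyme of myeloid cells, 7728 and 985. In VD-Mac cells without dendritic cell genes, thinned to 5000 UMIs, *Csf1r* was found in 72.5% and *C1qa* in 33.6%. The name macrophage thus held in the data by *Csf1r* for most of these cells and by *C1qa* for a minority, and those with *Ccr7* are called Trem2-positive, Ccr7-positive cells here. Since the rule keeps them, many groups of genes are given both for all selected cells and after cells with a UMI of *Flt3*, *Ccr7*, *Zbtb46*, or *Xcr1* were left out on both sides, which kept 336 graft and 808 VD-Mac cells. The part of the Ccr7-positive cells in any difference between culture and graft was otherwise not tested.

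Markers of other cell types were read as well, although the selection itself set the Cd3 genes to 0 and limited *S100a8* and *S100a9*. The 8 keratinocyte markers summed to 20.9, 5.59, and 7.41 CPM in the graft, VD-Mac, and Co-Mac, and the 9 B and plasma cell markers, led by *Ighm* in VD-Mac, to 54.3, 37.8, and 3.23 CPM. Mast cell and basophil markers summed to 44.3, 21.2, and 1.53 CPM, led in the graft by *Mcpt8* at 42.8 CPM, and after thinning 1 cell held all 56 of its UMIs. Fibroblast markers reached 294, 74.7, and 190.2 CPM, most of it *Gsn* at 214, 74.5, and 190.1 CPM, a gene that macrophages also express. *Col3a1*, which defines fibroblasts, lay at 33.9 CPM in the graft and at 0 in both cultures. Of the 363 graft cells, 305 had fewer than 3 UMIs of *Col1a1*, *Col1a2*, *Col3a1*, and *Dcn* together. Endothelial markers summed to 107, 9.59, and 13.5 CPM, led in the graft by *Pecam1* at 61.5 CPM, and erythroid genes to 60.6, 0.764, and 1.21 CPM. Neutrophil markers, led by *S100a8* and thus limited in part by the selection, summed to 377, 518, and 694 CPM, with 0 of 3 tested higher and 1 lower, and 0 and 3 of 4 without the cells bearing dendritic cell genes. Leaving out the graft cells with 3 or more UMIs of these collagen and decorin genes kept 241 of 300 log2 ratios of named genes within their intervals. For the other cell types the part of their RNA in the differences was not tested.

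Levels were compared for 3324 genes (called tested below) with at least 50 CPM in the Trem2-positive cells of the graft or VD-Mac. Of these, 430 (12.9%) were at least 4-fold higher in the graft and 140 (4.21%) at least 4-fold lower, while 987 (29.7%) and 522 (15.7%) were at least 2-fold higher and lower. The median log2 ratio, graft over VD-Mac, was 0.31 over all genes tested and 0.10 over the 1862 with at least 50 CPM on both sides. A gene that reached 50 CPM on only one side was tested because it was high there. The limit thus set part of the counts and medians, also those of the gene lists below. Without the cells bearing dendritic cell genes, 377 genes were at least 4-fold higher and 98 at least 4-fold lower, of 3348 tested, and 871 and 539 at least 2-fold higher and lower. Totals without mitochondrial and ribosomal protein genes moved every log2 ratio by -0.28, and under this scaling 395 genes were at least 4-fold higher and 244 lower, of 4087 that then reached 50 CPM. Without the graft cells with 3 or more UMIs of *Col1a1*, *Col1a2*, *Col3a1*, and *Dcn*, the numbers were 440 and 135. Ratios are graft over VD-Mac unless stated, brackets hold 95% intervals, and these cover counting error only.

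**Figure D3:**
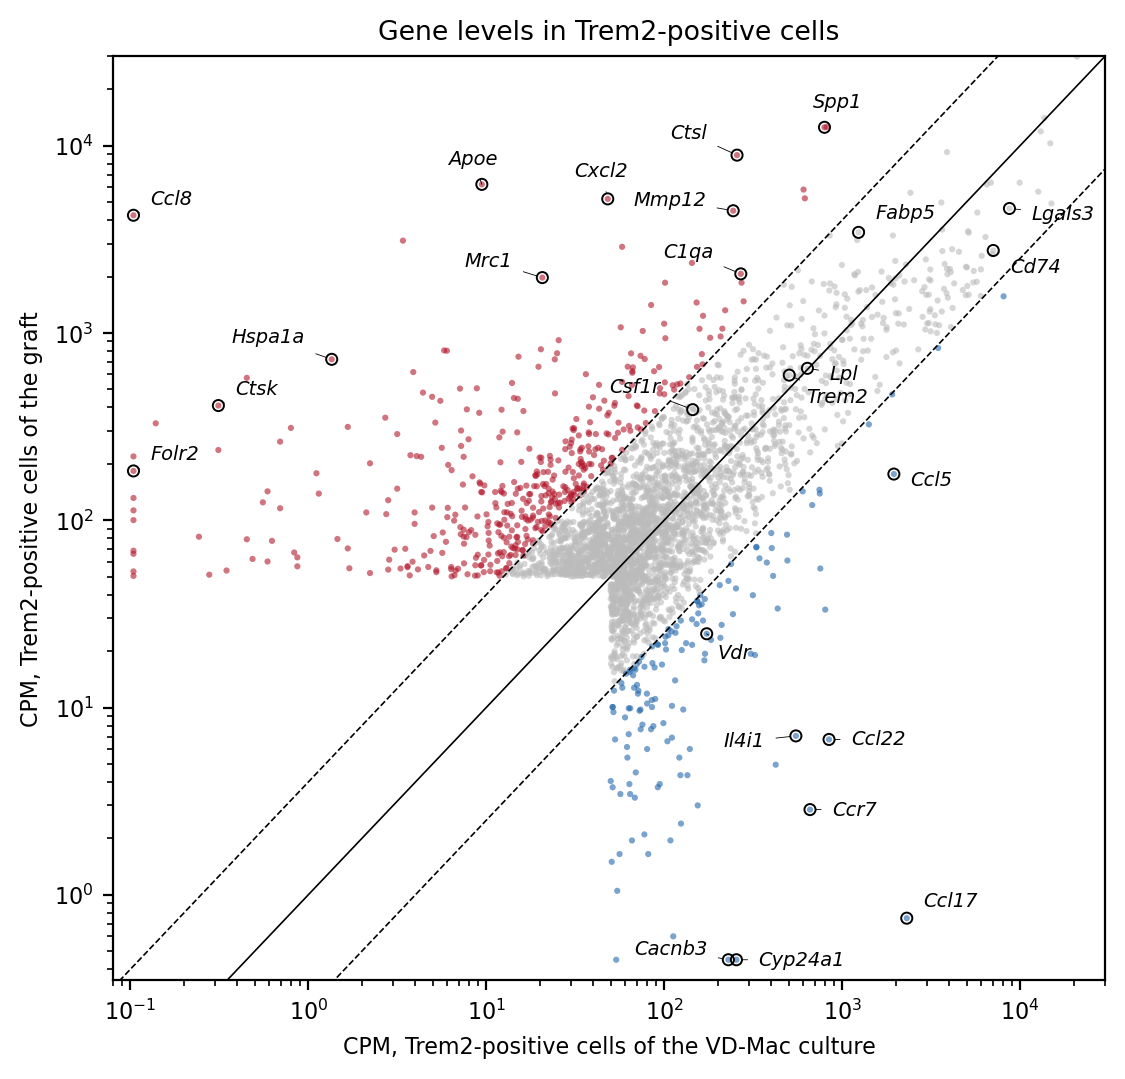
Levels of the 3324 genes tested in Trem2-positive cells of VD-Mac (horizontal axis, CPM, log scale) and of the graft (vertical axis, CPM, log scale). The solid line marks equal levels and the dashed lines 4-fold differences, with genes past them in red (higher in the graft) and blue (lower), and genes at 0 drawn at the floor of 3 counts. *Ccl8* and *Folr2* lay at the floor of VD-Mac, and *Cyp24a1* at that of the graft.

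*Trem2*, whose level the selection sets, was at 595 CPM in the graft, 504 in VD-Mac, and 288 in Co-Mac. Its adaptor *Tyrobp* lay at 1420.5, 929, and 1367 CPM in the same order, a log2 ratio of 0.61 (0.58 to 0.65) that came to -0.02 without the cells bearing dendritic cell genes. Of 9 genes of the *Trem2* pathway that were tested, *Trem2* among them, 3 were at least 2-fold higher in the graft and 0 lower, near the 29.7% higher among all genes. Those higher were the phosphatase gene *Inpp5d*, which dampens the pathway, the Src-family kinase gene *Lyn*, and *Adam17*, whose protease sheds TREM2 from the cell surface. *Adam17* stood at 142 CPM in the graft, 44.3 in VD-Mac, and 83.7 in Co-Mac. *Syk*, the kinase that TYROBP recruits, lay at 163, 103, and 107 CPM, and *Adam10*, the other sheddase, at 98.9, 57.5, and 94.9 CPM. After cells bearing dendritic cell genes were left out, the log2 ratio of *Trem2* was -0.51 and that of *Syk* 1.34, with 2 of 10 tested higher and 1 lower.

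The macrophage genes were higher in the graft. *Csf1r* reached 389 CPM in the graft, 145 in VD-Mac, and 226 in Co-Mac, a difference of 2.69-fold (95% interval 2.56 to 2.83). Without the cells bearing dendritic cell genes its log2 ratio of 1.43 came to 0.42, under 2-fold. Of 16 core macrophage genes tested, 15 were at least 2-fold higher and 0 lower, with a median of 2.59 beside 0.31 for all genes, and *Spi1*, the gene of the factor PU.1, lay within 2-fold at 243, 329, and 403 CPM. In the cells without dendritic cell genes, 11 were higher and 1 lower (*Spi1*), with a median of 1.76 beside 0.19. *Maf*, which sustains macrophage identity, was at 219.9 CPM in the graft, 4.06 in VD-Mac, and 2.70 in Co-Mac. The lysosomal glycoprotein gene *Cd68* reached 660.2, 62.4, and 167 CPM. The log2 ratios of *Maf* and *Cd68* without the cells bearing dendritic cell genes were 4.93 and 2.49. These stayed more than 4-fold higher, while *Csf1r* went from 2.69-fold to under 2-fold. *Cd14*, a co-receptor for bacterial lipopolysaccharide, was at 1072 CPM in the graft, 57.0 in VD-Mac, and 71.8 in Co-Mac.

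Complement genes followed a similar order, with 8 of 12 tested at least 2-fold higher in the graft, 0 lower, and a median of 2.58 (1.51 without the cells bearing dendritic cell genes). The C1q chains *C1qa*, *C1qb*, and *C1qc* stood at 2067, 1762, and 1234 CPM in the graft and at 269, 521, and 165 in VD-Mac. Their genes lie side by side on chromosome 4. The receptor gene *C3ar1* was at 297 CPM in the graft, 12.4 in VD-Mac, and 38.6 in Co-Mac. *C3*, the central component, went the other way, at 309, 477, and 125 CPM, and in VD-Mac it lay at 779.9 CPM in cells with no *Ccr7* UMI and 252 in those with 2 or more. Its log2 ratio of -0.63 came to -1.33 without the cells bearing dendritic cell genes, where 7 genes of the list were higher and 1 lower.

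Genes of lipid-associated macrophages did not move as a block. Of 19 tested, 13 were at least 2-fold higher in the graft and 0 lower, with a median of 1.46 (1.06 without the cells bearing dendritic cell genes). *Apoe*, the apolipoprotein that carries cholesterol out of macrophages, was at 6210.2 CPM in the graft, 9.45 in VD-Mac, and 51.3 in Co-Mac, at least 583-fold higher in the graft than in VD-Mac by the lower end of its interval. An *Apoe* UMI was found in 86.5% of thinned graft cells, 3.23% of VD-Mac cells, and 5.78% of Co-Mac cells, beside 22.4%, 3.31%, and 7.83% of the comparison cells. The shares of both cultures were thus close to those of their S100-rich cells, although 1 Co-Mac cell held 87 *Apoe* UMIs. *Spp1*, encoding the secreted matrix protein osteopontin, stood at 12524 CPM in the graft, 796 in VD-Mac, and 724 in Co-Mac. Its UMIs were found in 85.9%, 51.0%, and 59.8% of cells, beside 38.3%, 46.7%, and 38.3% of comparison cells, and 15.5% of VD-Mac cells with no *Trem2* UMI. *Fabp4*, a fatty acid binding protein gene, lay at 237, 0.313, and 3.86 CPM, with 9 UMIs in VD-Mac. Few graft cells carried its level, with 0 UMIs at the 75th percentile of thinned cells, 1 at the 90th, and a highest value of 52. Thinned graft cells with 0 *Trem2* UMIs that met the other criteria had more, at 439 CPM, against 185 in those with at least 4.

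Other lipid genes differed less. *Lpl*, whose lipase frees fatty acids from lipoproteins, was at 647 CPM in the graft, 638 in VD-Mac, and 2239 in Co-Mac, a log2 ratio of 0.02 (-0.03 to 0.07). Thinned to equal depth, 27.9% of graft cells had an *Lpl* UMI, against 70.7% of VD-Mac and 91.1% of Co-Mac cells. The mean per thinned cell was 2.26, 3.14, and 11.0 UMIs, so at that depth the graft was below VD-Mac and fewer of its cells held a UMI. Shares in comparison cells are not given for *Lpl*, and the part of stray RNA was not tested. *Gpnmb*, a lysosomal glycoprotein gene, stood at 819, 316, and 248 CPM, *Cd9*, a tetraspanin gene, at 623, 475, and 619.7 CPM, and *Lgals3*, encoding galectin-3, at 4617, 8709.8, and 7405 CPM. *Lgals3* was below its culture level by less than 2-fold. *Fabp5* lay at 3442, 1236, and 1970.0 CPM, and its VD-Mac level came mostly from Ccr7-positive cells (2082 CPM, against 127 in those with no *Ccr7* UMI). Without the cells bearing dendritic cell genes, its log2 ratio rose from 1.48 to 4.85.

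Some targets of the sterol-sensing LXR receptors were higher in the graft. *Abca1*, the pump that loads cholesterol onto apolipoproteins, was at 660.0 CPM in the graft, 19.7 in VD-Mac, and 24.2 in Co-Mac. *Pltp*, which moves phospholipids between lipoproteins, was at 456, 4.97, and 17.1 CPM, and *Mylip*, whose ligase degrades the LDL receptor, at 117, 7.61, and 8.85 CPM. Other listed targets are the sterol exporter gene *Abcg1*, at 116, 105, and 121 CPM, and *Scd1*, a fatty acid desaturase gene, at 2.10, 77.4, and 13.3 CPM. The list thus held genes higher in the graft, genes within 2-fold, and *Scd1* lower, at 4, 2, and 1 of 7 tested, while without the cells bearing dendritic cell genes 4 of 6 were higher and 0 lower. Of 20 genes for cholesterol synthesis, only 4 reached 50 CPM on one side, of which *Hmgcs1* and *Insig1* were at least 2-fold higher, against 3 of 3 without the cells bearing dendritic cell genes.

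**Figure D4:**
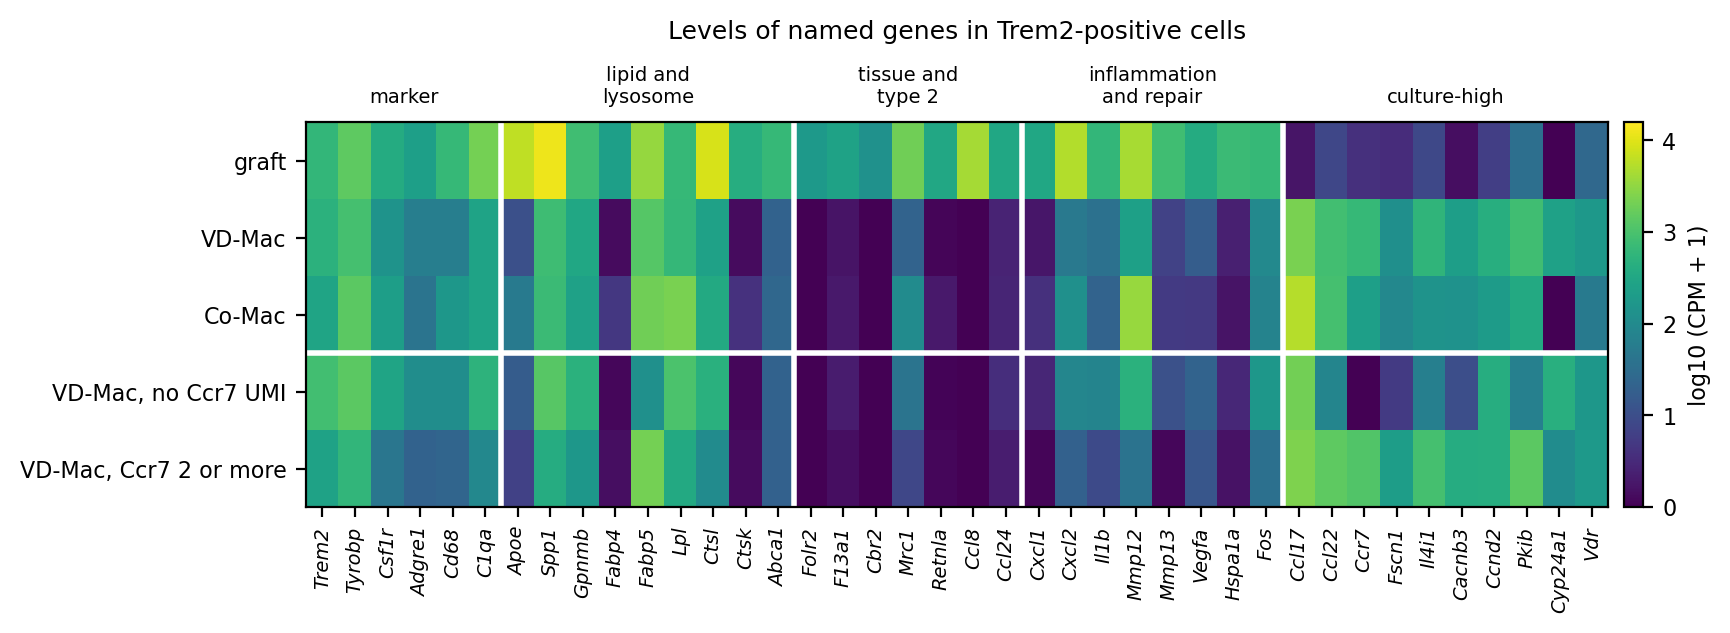
Levels of named genes (columns, grouped by role) in Trem2-positive cells, as log10 of CPM plus 1 (colour). The upper rows are the graft, VD-Mac, and Co-Mac, and the lower rows split the VD-Mac cells by *Ccr7* UMIs. The tissue and type 2 genes shown were highest in the graft row, and several culture-high genes were carried by the Ccr7-positive row.

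Lysosomal proteases were higher in the graft as a group. Of 21 cathepsin and hydrolase genes tested, 14 were at least 2-fold higher and 0 lower, with a median of 1.61 (1.06 without the cells bearing dendritic cell genes). *Ctsl*, encoding cathepsin L, stood at 8895 CPM in the graft, 257 in VD-Mac, and 349.7 in Co-Mac, a difference of 34.7-fold (95% interval 33.8 to 35.5). *Ctsk*, the collagen-cleaving cathepsin of osteoclasts, was at 409.5, 0.313, and 2.92 CPM, with 9 UMIs in VD-Mac and a log2 ratio of 10.36 (9.43 to 11.49). *Ctsb* reached 5826, 607, and 808 CPM and *Lgmn*, the gene of legumain, 2364, 143, and 129 CPM. *Ctsz*, *Ctsh*, *Lamp1*, and *Lamp2* lay within 2-fold, with *Ctsz* at 1593, 1538, and 1494 CPM, so the difference did not extend to every lysosomal gene. *Acp5*, the acid phosphatase of osteoclasts, was at 295, 14.9, and 40.0 CPM, while the fusion genes *Dcstamp* and *Ocstamp* did not reach 50 CPM on either side.

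Genes for the uptake of dying cells were higher in the graft with 1 exception. Of 12 tested, 11 were at least 2-fold higher, with a median of 2.68 (1.99, with 9 higher, without the cells bearing dendritic cell genes). *Mertk*, *C1qa*, *C1qb*, and *C1qc* are among those higher and were also counted as core macrophage genes, and the C1q genes under complement. These lists are thus not separate results. *Gas6*, which bridges dying cells to TAM receptors, stood at 143 CPM in the graft, 0.591 in VD-Mac, and 1.12 in Co-Mac, *Mfge8*, another bridging protein, at 435, 46.1, and 122 CPM, and the TAM receptor gene *Mertk* at 70.6, 14.5, and 13.4 CPM. *Axl*, the sister receptor of *Mertk*, went the other way at 25.1, 116, and 223 CPM, a log2 ratio of -2.21 (-2.44 to -1.98). The graft cells thus had more *Mertk* and less *Axl* than either culture, and *Axl* was highest in the untreated one.

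Genes known from resident perivascular macrophages were mostly higher in the graft. *Folr2*, *Cbr2*, *Ccl8*, and others reached 50 CPM only in the graft, so the limit itself set part of their median, which is not ranked here. Of 13 tested, 12 were at least 2-fold higher in the graft and 0 lower, with a median of 6.58 (5.63 without the cells bearing dendritic cell genes). *Folr2*, the folate receptor of tissue macrophages, stood at 183 CPM in the graft and had 0 UMIs in both cultures, at least 1759-fold higher against a floor of 3 UMIs over the summed VD-Mac cells. *Cbr2*, a carbonyl reductase gene, was at 131 CPM and also at 0 in both cultures, as was *Tmem26* at 113 CPM. *F13a1*, a subunit of clotting factor XIII, lay at 263, 0.695, and 0.944 CPM, and *Cd163*, the scavenger receptor for haemoglobin, at 219, 0.104, and 0.674 CPM with 3 UMIs in VD-Mac. *Lyve1* and *Timd4*, further markers of this kind, did not reach 50 CPM, with *Lyve1* at 40.7 and *Timd4* at 0.450 CPM in the graft and both at 0 in VD-Mac. *Mrc1*, the mannose receptor gene, was found in 85.0% of graft cells, 7.46% of VD-Mac cells, and 31.7% of Co-Mac cells at equal depth, beside 12.0%, 0%, and 1.51% of comparison cells. *Gja1*, the gap junction protein connexin 43, was at 100.1, 0.0695, and 0.0899 CPM with 2 UMIs in VD-Mac, and *Ms4a6b*, a membrane-spanning protein gene, at 125, 0.556, and 0.315 CPM.

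Alternative activation genes were also higher, at 8 of 12 tested with a median of 3.60 (2.69 without the cells bearing dendritic cell genes), and 1 was lower (*Ccl17*). *Retnla*, *Ccl24*, and *Cd163* reached 50 CPM only in the graft, so that limit set part of this count and median. *Cd163* and *Mrc1* were counted both here and among the genes of resident macrophages. *Retnla*, which encodes RELMα, was at 329 CPM in the graft, 0.139 in VD-Mac, and 0.944 in Co-Mac, with 4 UMIs in VD-Mac, and *Ccl24*, a chemokine for eosinophils, at 315, 1.67, and 1.71 CPM. A *Retnla* UMI was found in 9.97% of thinned graft cells and a *Ccl24* UMI in 20.2%, so few cells carried the *Retnla* level. *Mgl2*, a lectin gene that IL-4 induces, was at 65.1, 37.2, and 717 CPM, highest in the untreated culture. *Il4ra*, the receptor chain for IL-4 and IL-13, was just within 2-fold at 168, 85.4, and 68.4 CPM.

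Chemokine genes went both ways. Of 17 tested, 8 were at least 2-fold higher in the graft and 3 lower, with a median of 0.52. Among all genes 29.7% were higher and 15.7% lower, so the share lower was near that of all genes. Without the cells bearing dendritic cell genes 7 were higher and 6 lower. *Ccl8*, a ligand that draws monocytes and T cells, had 28300 UMIs in the graft (4248 CPM) and 0 in either culture, at least 40761-fold higher. A *Ccl8* UMI was found in 53.4% (47.9 to 58.8) of thinned graft cells and in 23.5% of the Cd3-positive cells. The monocyte attractants *Ccl7* and *Ccl12* were at 618 and 178 CPM in the graft and 3.89 and 1.11 in VD-Mac, while *Ccl2* lay closer at 454, 122, and 179 CPM. These 4 genes share a stretch of chromosome 11, from *Ccl2* (GRCm38 chr11:82035571-82037453, plus strand) to *Ccl8* (chr11:82115185-82116799, plus strand). Other genes of that chromosome's chemokine loci did not follow, with *Ccl6* at 1912, 2537, and 4852 CPM, *Ccl9* at 1524, 1069, and 1636 CPM, and *Ccl3* at 241, 229, and 152 CPM. With cells bearing dendritic cell genes left out, the log2 ratio of *Ccl3* went from 0.07 to -1.63, and that of *Ccl4* from -0.61 to -2.19. *Cxcl2* and *Cxcl1*, which attract neutrophils, stood at 5194 and 311 CPM in the graft, 48.2 and 0.799 in VD-Mac, and 129 and 2.88 in Co-Mac.

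*Ccl17* and *Ccl22*, ligands of CCR4 that draw T cells, gave the reverse pattern. *Ccl17* was at 0.751 CPM in the graft, 2307 in VD-Mac, and 5382 in Co-Mac, with 5 UMIs in the graft. Its log2 ratio of -11.59 (-13.21 to -10.36) was the lowest among named genes under the floor of 3 counts. For *Cyp24a1*, at 0 UMIs in the graft, that floor gives only a limit. At equal depth, 57.7% of VD-Mac and 72.0% of Co-Mac cells had a *Ccl17* UMI, beside 12.2% and 18.4% of their S100-rich cells and 0 of 341 graft cells, for which 3 counts allow up to 0.880% of cells with a UMI. *Ccl22* stood at 6.75, 844, and 921 CPM. Both genes lie on chromosome 8, *Ccl22* at chr8:94745590-94751699 and *Ccl17* at chr8:94810453-94812036, both on the plus strand. Their cells differed, since *Ccl17* reached 2049 CPM in VD-Mac cells with no *Ccr7* UMI and 2419 in those with 2 or more, while *Ccl22* reached 81.1 and 1427. *Ccl5* followed *Ccl22*, at 176, 1952, and 1848 CPM in the libraries and 205 and 3305 CPM in these VD-Mac cells.

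Of 9 tested genes listed as inflammatory cytokines and antagonists, 6 were at least 2-fold higher in the graft, with a median of 2.14. They were *Tnf*, *Il1b*, *Osm*, *Il1rn*, *Tnfaip3*, and *Ptgs2*, so not all are cytokine genes, and *Gdf15* was lower. *Il1b*, *Il1rn*, *Ptgs2*, and *Osm* reached 50 CPM in the graft and not in VD-Mac, so that limit set part of the count and median. *Il1b*, encoding interleukin-1β, stood at 602 CPM in the graft, 36.3 in VD-Mac, and 21.0 in Co-Mac, and its antagonist *Il1rn* at 475, 24.4, and 99.6 CPM. *Ptgs2*, the inducible cyclooxygenase, was at 301, 7.23, and 0.315 CPM, *Tnf* at 216, 51.2, and 41.8 CPM, and *Osm*, encoding oncostatin M, at 147, 33.4, and 16.1 CPM. Cytokine and antagonist were thus both higher in the graft cells. Without the cells bearing dendritic cell genes, the median was 1.08 and the log2 ratio of *Tnf* 0.99, just under 2-fold.

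Genes listed for vessel growth, among them the cytokine gene *Il1b* and the receptor genes *Nrp1* and *Nrp2*, were higher at 8 of 11 tested and lower at 1, with a median of 3.49 (2.54 without the cells bearing dendritic cell genes). *Vegfa*, *Pgf*, *Areg*, *Igf1*, and *Il1b* reached 50 CPM only in the graft, so that limit set part of this count and median. *Vegfa*, the main growth factor of endothelium, was at 383 CPM in the graft, 16.2 in VD-Mac, and 3.91 in Co-Mac, and its relative *Pgf* at 69.7, 3.06, and 11.3 CPM. *Areg*, encoding the EGF receptor ligand amphiregulin, stood at 66.2, 0.0695, and 0.315 CPM with 2 UMIs in VD-Mac, and *Igf1* at 222, 3.75, and 40.3 CPM. *Thbs1*, encoding thrombospondin-1, which inhibits vessel growth and is listed with these factors, was higher as well, at 1119.8, 99.9, and 158 CPM. *Pdgfa*, a growth factor for mesenchymal cells, was lower than in VD-Mac and higher than in Co-Mac, at 62.9, 158, and 18.2 CPM. *Hbegf*, another EGF receptor ligand, was highest in the graft and lowest in Co-Mac, at 624, 87.7, and 5.17 CPM.

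Genes for matrix breakdown, which include proteases, their inhibitors *Timp1* and *Timp2*, and the receptor gene *Plaur*, changed in a similar direction, with 10 of 11 tested at least 2-fold higher in the graft, *Mmp8* lower, and a median of 3.51 (3.46 without the cells bearing dendritic cell genes). *Mmp13*, *Mmp19*, *Timp1*, and *Timp2* reached 50 CPM only in the graft, so that limit set part of this count and median. *Mmp13*, a collagenase gene, stood at 806 CPM in the graft, 5.80 in VD-Mac, and 4.18 in Co-Mac, and *Mmp19* at 332, 5.18, and 26.2 CPM. *Mmp12*, the macrophage elastase, was at 4491, 244, and 3582 CPM, so that graft and untreated culture were close and VD-Mac was low. An *Mmp12* UMI was found in 52.2%, 13.5%, and 75% of thinned cells. *Timp2*, an inhibitor of these proteases, was at 803, 6.01, and 28.7 CPM, and *Timp1* at 172, 19.0, and 16.3 CPM. *Mmp8*, the neutrophil collagenase, lay at 43.1, 136, and 233 CPM. *Fn1*, encoding the matrix protein fibronectin, was at 2882, 58.0, and 676 CPM, again higher in Co-Mac than in VD-Mac.

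Of the 15 genes ranked lowest in the graft, several were carried by the Ccr7-positive cells of the culture. *Ccr7* itself stood at 2.85 CPM in the graft, 659.7 in VD-Mac, and 234 in Co-Mac, and *Fscn1*, which bundles actin in the projections of mature dendritic cells, at 2.40, 124, and 90.6 CPM. *Il4i1*, a secreted amino acid oxidase gene, was at 7.06, 549.5, and 145 CPM, *Cacnb3*, a calcium channel subunit gene, at 0.450, 229, and 137 CPM with 3 UMIs in the graft, and *Pkib*, an inhibitor of protein kinase A, at 33.3, 804, and 350.2 CPM. In VD-Mac cells with no *Ccr7* UMI and those with 2 or more, *Fscn1* lay at 4.11 and 217 CPM, *Cacnb3* at 9.03 and 399, and *Pkib* at 67.6 and 1367. Once cells bearing dendritic cell genes were left out, the log2 ratios of *Fscn1* and *Pkib* went from -5.69 and -4.59 to -0.93 and -0.66, under 2-fold. Those of *Rabgap1l*, *Glipr2*, *Spint2*, *Batf3*, *Bmyc*, and *Il4i1* went to -1.07, -1.25, -3.29, -3.12, -3.17, and -2.98, still lower in the graft. Cyclin D2 (*Ccnd2*), which carries cells into the cell cycle, did not depend on this split. It was at 4.95 CPM in the graft, 423 in VD-Mac, and 204 in Co-Mac, with 420.1 and 419 CPM in the VD-Mac cells with no *Ccr7* UMI and with 2 or more. *Ramp1*, a subunit of the receptor for the neuropeptide CGRP, was at 6.91, 111, and 64.4 CPM and was the reverse of *Fscn1*, at 204 and 42.7 CPM.

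Genes of the colony-stimulating factors went both ways. Beside *Csf1r*, *Csf2rb*, the shared chain of the GM-CSF receptor, was at 478 CPM in the graft, 982 in VD-Mac, and 922 in Co-Mac, and *Csf2rb2* at 117, 318, and 270.4 CPM. *Csf2ra*, the chain that binds GM-CSF, did not follow them, within 2-fold at 167, 111, and 182 CPM. *Cish*, a target of STAT5 that dampens cytokine signals, lay at 76.3, 190.1, and 189.7 CPM, and the related *Socs3*, a target of STAT3, at 199.8, 37.9, and 39.1 CPM. *Csf1r* and *Socs3* were thus higher in the graft and *Csf2rb*, *Csf2rb2*, and *Cish* lower, each by at least 2-fold. For *Cish* the log2 ratio of -1.32 (-1.45 to -1.19) was -1.32 without the cells bearing dendritic cell genes. *Csf1r* and *Csf2rb*, at 0.42 and -0.86, then lay within 2-fold.

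The vitamin D list held genes on both sides. *Cyp24a1*, the enzyme that inactivates VD3 and a known target of its receptor, had 0 UMIs in the graft, 255 CPM in VD-Mac, and 0 in Co-Mac, at least 565-fold lower in the graft than in VD-Mac against a floor of 3 UMIs. At equal depth 43.5% (41.1 to 46.0) of VD-Mac Trem2-positive cells had a *Cyp24a1* UMI, beside 53.6% of S100-rich cells and 8.16% of the cells with no *Trem2* UMI that met the other criteria. In the graft 0 of 341 cells had one, for which 3 counts allow up to 0.880% of cells with a UMI. *Vdr*, the receptor gene itself, was at 24.8 CPM in the graft, 173 in VD-Mac, and 51.4 in Co-Mac, and in VD-Mac at 164 and 182 CPM in cells with no *Ccr7* UMI and with 2 or more. *Gdf15* stood at 71.6, 329.5, and 7.73 CPM, and *Cd14* and *Hbegf*, also listed as targets, were higher in the graft than in VD-Mac. Of 7 genes tested, 4 were at least 2-fold higher and 3 lower, with a median of 1.26 that changed sign under other cell and depth limits. In the cells without dendritic cell genes, 3 were higher and 3 lower, and the median was 0.30. Among VD-Mac cells, a *Ccr7* UMI was found in 25.7% of the 688 thinned cells with a *Cyp24a1* UMI and in 69.3% of the 893 without, and a *Csf1r* UMI in 60.3% and 24.0%.

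Interferon-induced genes split as well. *Ifitm3*, a membrane protein that blocks virus entry, was at 469.7 CPM in the graft, 1909 in VD-Mac, and 317 in Co-Mac, and its relative *Ifitm6* at 11.0, 85.1, and 3.19 CPM. Both were thus higher in VD-Mac than in either other library, with *Ifitm3* at 3518 CPM in the VD-Mac cells with no *Ccr7* UMI and 693 in those with 2 or more. *Gbp5* and *Gbp2*, guanylate-binding protein genes, lay at 3.90 and 43.2 CPM in the graft and 94.5 and 253 in VD-Mac. *Irf7* and *Isg15*, induced by type I interferon, were higher in the graft, at 60.2, 0.591, and 2.11 CPM and 95.6, 3.96, and 10.8 CPM. Of 8 genes of the list tested, 4 were at least 2-fold higher and 3 lower, against 5 and 2 of 7 without the cells bearing dendritic cell genes.

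Genes for antigen presentation went both ways, with 2 of 9 tested higher (*H2-Ab1* and *Ctss*), 2 lower (*Cd74* and *Cd80*), and a median of -0.26, not far from the 29.7% and 15.7% of all genes. *Cd74*, the chaperone of MHC class II, was at 2755 CPM in the graft, 7062 in VD-Mac, and 7828 in Co-Mac, a log2 ratio of -1.36 (-1.38 to -1.34). *H2-Aa* lay at 1126, 1140.2, and 1352 CPM and *H2-Ab1* at 1094, 517, and 1114 CPM. Without the cells bearing dendritic cell genes, *H2-Aa* and *H2-Eb1* had log2 ratios of 1.03 and 0.88 in place of -0.02 and -0.42, and 4 of 8 tested were higher and 1 lower. The median of the list turned to 0.95. The presentation genes of the culture were thus partly those of its Ccr7-positive cells. Among uptake receptors, 8 of 10 tested were at least 2-fold higher in the graft, with a median of 3.04 (2.16 without the cells bearing dendritic cell genes), while the lectin genes *Clec4n* and *Clec12a* were lower, at 258, 720.2, and 2357 CPM and 68.0, 143, and 63.2 CPM. Of 7 tested Fc receptor genes, 5 were higher and 0 lower with and without those cells, led by *Fcgr4*, a receptor for IgG, at 62.1, 0.486, and 0.539 CPM. The inhibitory IgG receptor gene *Fcgr2b* stood at 1052, 158, and 182 CPM.

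Genes of energy metabolism were read by pathway. Of 13 glycolysis genes tested, 10 were at least 2-fold higher in the graft and 0 lower, with a median of 1.22, but without the cells bearing dendritic cell genes 3 of 14 were higher, no more than among all genes, and the median was 0.66. *Hk2*, the inducible hexokinase, was at 176 CPM in the graft, 19.4 in VD-Mac, and 43.9 in Co-Mac, and *Ldha*, which makes lactate, at 719, 310.2, and 546 CPM. Of 9 genes induced by low oxygen, 7 were higher and 0 lower, with a median of 2.20 (1.34 after the same cells were left out), among them *Bnip3*, a gene of mitochondrial clearance, at 142, 23.6, and 16.5 CPM. Of 21 nuclear subunits of the respiratory chain, 0 were higher, 5 lower (beside 15.7% lower among all genes), and 16 within 2-fold, with a median of -0.46 (-0.82 without the cells bearing dendritic cell genes). *Cox8a*, a subunit of cytochrome oxidase, was at 688 CPM in the graft, 2103 in VD-Mac, and 1682 in Co-Mac.

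*Hmox1*, which breaks down haem, stood at 1453 CPM in the graft, 152 in VD-Mac, and 237 in Co-Mac, a difference of 9.55-fold (95% interval 9.22 to 9.90). The transferrin receptor gene *Tfrc* was at 159.9, 14.3, and 24.5 CPM and *Slc11a1*, an iron transporter of phagosomes, at 123, 16.9, and 27.5 CPM. Of 9 genes for haem and iron tested, 4 were at least 2-fold higher, 1 lower, and 4 within, beside 29.7% higher and 15.7% lower among all genes. The median was 0.64 (0.16 without the cells bearing dendritic cell genes). The lower gene was *Blvrb*, a biliverdin reductase gene, at 248, 521, and 818 CPM. The ferritin chains *Ftl1* and *Fth1* lay within 2-fold, with *Fth1* at 29848, 20903, and 32682 CPM. Among genes against oxidative stress, 3 of 11 tested were higher and 2 lower with a median of 0.25 (0.05 with those cells left out), near that of all genes. *Gclc*, the rate-limiting enzyme of glutathione synthesis, was at 151, 36.9, and 42.3 CPM, and *Gpx4*, which repairs oxidised lipids, at 445, 931, and 770.5 CPM.

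Stress genes that tissue digestion can induce were higher in the graft, whose cells came from tissue. Of 15 immediate early genes tested, 11 were at least 2-fold higher and 0 lower, with a median of 1.75 and summed levels of 9277, 2683, and 2028 CPM in the graft, VD-Mac, and Co-Mac. In the cells without dendritic cell genes, 10 were higher and 2 lower. *Fos* and *Junb*, parts of the transcription factor AP-1, stood at 657 and 1808 CPM in the graft and 93.6 and 470.1 in VD-Mac. Of 10 heat shock genes, 6 were higher and 0 lower, also without those cells, with summed levels of 7107, 3190.3, and 3609 CPM. *Hspa1a* and *Hspa1b*, which encode inducible HSP70 and neighbour each other on chromosome 17, were at 723, 1.35, and 0.674 CPM and 576, 0.452, and 0.539 CPM. At equal depth 60.7% of graft Trem2-positive cells and 21.3% of its Cd3-positive cells had an *Hspa1a* UMI, against 0.633% of VD-Mac cells. For *Fos* the shares were 68.3%, 20.2%, and 28.9%. Whether the Cd3-positive cells express these genes themselves was not tested. The part of dissociation in the differences of *Cxcl1*, *Cxcl2*, *Il1b*, *Atf3*, and other inducible genes was not tested.

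The most abundant genes of close level on both sides (limit given with the methods, met by 610 of 3324 tested, 18.4%) were *Malat1*, a nuclear noncoding RNA, at 14031, 13702, and 8057 CPM, *Ftl1* at 11909, 13060.4, and 19732 CPM, *Actb*, encoding cytoskeletal actin, at 6346, 6854, and 11285 CPM, and *Tpt1*, encoding a translationally controlled protein, at 6199.9, 6509, and 5586 CPM. The next were *Cyba*, a subunit of the phagocyte oxidase, the MHC class I gene *H2-K1*, *Ctsz*, *Gpx1*, *Gapdh*, and *Btg1*. *Gapdh* stood at 1465, 1680.2, and 1764 CPM and *H2-K1* at 1809, 1939, and 892 CPM. They were chosen by their like levels, so the closeness itself is not a finding. *Malat1* and *H2-K1* were lower in Co-Mac than in either.

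Within the graft, cells differed widely in single genes. Among thinned graft cells, *Spp1* ran from 0 UMIs at the 10th percentile through a median of 9 to 162 at the 90th, with a highest value of 663. *Apoe* ran from 0 through 19 to 81 and *Ccl8* from 0 through 1 to 90. The summed levels of *Spp1* and *Ccl8* thus rested largely on a minority of cells with many UMIs. A *Ccl8* UMI was found in 58.6% of the 290 thinned graft cells with an *Mrc1* UMI and in 23.5% of the 51 without, and in 46.8% of the 156 cells with a *Gpnmb* UMI and 58.9% of the 185 without. *Spp1* was found in 84.6% of the 182 cells with *Ccl8* and 87.4% of the 159 without.

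Levels were also read along *Trem2* itself, in cells that met the other criteria and were thinned to 5000 UMIs. With 0, 1, 2 to 3, and at least 4 *Trem2* UMIs, the graft had 480, 125, 130, and 93 such cells and VD-Mac 2565, 636, 480, and 470. In the graft, *Spp1* stood at 1132, 5834, 7548, and 18464 CPM in this order, *Gpnmb* at 60.4, 176, 355, and 1097, and *Ctsl* at 1928, 4218, 6628, and 12366. *Spp1*, *Gpnmb*, and *Ctsl* were highest in the cells with the most *Trem2*. Some other lipid and lysosome genes were not, among them *Abca1* at 343, 509, 768, and 647 CPM and *Lgmn* at 1470, 2350, 2698, and 2454. The graft cells with 0 *Trem2* UMIs include other cell types, with *Col3a1* at 5288, 534, 36.9, and 32.3 CPM and *Ccr7* at 312, 4.80, 4.62, and 2.15. *Csf1r*, at 278, 443, 415, and 363 CPM, did not rise steadily. *Thbs1*, at 1770.0, 1979, 1449, and 802, and *H2-Ab1*, at 3281, 2013, 1523, and 598, were lowest in the cells with the most *Trem2*. In VD-Mac, *Csf1r* stood at 19.3, 50, 176, and 277 CPM, *Cyp24a1* at 39.6, 105, 275, and 488, and *Ccr7* at 1345, 1172, 609, and 89.4. The VD-Mac cells with the most *Trem2* thus had the most *Csf1r* and *Cyp24a1* and the least *Ccr7*.

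Promoters, from 250 bases before to 50 after the gene start (RefSeq, GRCm38.p6), were found for 25 of the 30 genes ranked highest or lowest. The vitamin D response element, a direct repeat of 4 forms of a 6-base site with 3 bases between, occurred on either strand in 0 of them and in 12 of all 27025 promoters (0.0444%), with *Cyp24a1* among the genes with no entry. Motifs chosen after the ranks were seen, the heat shock element (GAA, TTC, and GAA with 2 bases between) and the STAT element (TTC and GAA with 3 bases between), occurred in 0 and 3 of the 25 (*Batf3*, *Ccl17*, and *Pkib*), beside 0.662% and 9.55% of all promoters. The promoters of *Cish*, *Csf2rb2*, and *Socs3* held the STAT element too, 3 of 8 of the list of colony-stimulating factor genes, and those of *Hspd1*, *Hspe1*, and *Hsph1* the heat shock element, 3 of 8 of the heat shock list. Of these heat shock genes, *Hsph1* was at least 2-fold higher in the graft, while *Hspd1* and *Hspe1* lay within 2-fold. A match is a description and not a site or a cause, and a missing match says only that these letters are not in the window.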

How the data were processed

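The values are the UMI counts the authors deposited, raw and by mouse gene, from 10x droplet libraries that were processed upstream with Cell Ranger 3.1.0. GEO's processing notes name mm9 and the paper's methods GRCh38, so the build of the counts is not settled, and coordinates come from GENCODE M21 (GRCm38), matched by mouse Ensembl ID (30934 of 31053). The members and gene lists were chosen with earlier results of these data known.

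UMIs of selected cells were summed per library and scaled to CPM. Shares of cells have exact 95% binomial intervals (a share of 0 has 3 counts of the total as its limit), and ratios have exact intervals from the binomial split of the UMIs on both sides. Genes at 0 UMIs were set to a floor of 3 counts over the summed cells. Named genes were those of the selection, the 15 highest and 15 lowest ratios among genes with at least 100 CPM and a UMI in at least 25% of cells on the higher side (predicted, immunoglobulin, and haemoglobin genes left out), the 10 most abundant within 1.25-fold (mitochondrial and ribosomal protein genes left out), and members of the lists. Thinning drew UMIs without replacement (seed 1). The alternatives covered the selection, depth, doublets, scaling, and level limits. Python 3.11.15, numpy 2.4.6, scipy 1.17.1, pandas 2.3.3, and matplotlib 3.10.9 were used, and the ratio code was checked on simulated counts. Hashtag UMIs were left out of all totals.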

Additional observations from a re-analysis of the deposited data

Results flagged for a closer look

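Hashtag antibody UMIs, which no comparison here used, came to 199111 in the 363 Trem2-positive graft cells (median 372 per cell, found in 363 of 363), beside 0 in the cells of VD-Mac and Co-Mac.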

How the results depend on the processing

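No paired analysis was possible because each condition was 1 library and the comparison has no test. Of 33 numbers of selected cells, 18 stayed within 1.5 times the values above. With 1 *Trem2* UMI enough, VD-Mac had 2704 cells, the share with a *Csf1r* UMI was 30.2% in VD-Mac and 47.7% in Co-Mac, and the vitamin D list median, 1.26 above, was -0.25. With at least 4 UMIs, VD-Mac had 1096 and Co-Mac 685 cells, with *Csf1r* in 54.2% and 71.4%. With 2 *Trem2* UMIs required among 5000, the graft, VD-Mac, and Co-Mac had 223, 950, and 461 cells, with *Csf1r* in 55.8% of VD-Mac and 67.2% of Co-Mac cells. Between 10000 and 30000 UMIs, the graft had 232 cells, *Csf1r* was found in 37.2% of VD-Mac cells, and the vitamin D list median was -0.69. Without the condition on *Mki67* and *Top2a*, VD-Mac had 3228 and Co-Mac 2663 cells, with *Csf1r* in 48.9% and 62.7%. Under 5% mitochondrial UMIs, they had 409 and 239 cells, with *Csf1r* in 27.1% and 49.5%, and the log2 ratio of *Pf4* was -0.0115. With *Csf1r* and *Adgre1* required, VD-Mac had 584 and Co-Mac 395 cells. After thinning *Csf1r* was then found in 84.1% of graft, 74.0% of VD-Mac, and 76.4% of Co-Mac cells. These shares follow from the condition itself and say nothing of how the *Csf1r* share depends on the processing. Without cells bearing *Flt3*, *Ccr7*, *Zbtb46*, or *Xcr1*, VD-Mac and Co-Mac had 808 and 636 cells, with *Csf1r* in 72.5% and 75.5%. The vitamin D list median was -0.41 without graft cells rich in collagen UMIs, -0.74 without the 10% of cells with the most UMIs, and -0.64 with the mean of each cell's CPM. Totals without mitochondrial and ribosomal genes gave 244 genes at least 4-fold lower. A limit of 20 CPM gave 659 genes at least 4-fold higher and 267 lower, and one of 200 CPM 165 and 39. At 2-fold, 987 were higher and 522 lower. With Co-Mac as the culture side, signs turned for the cholesterol synthesis median (-0.77) and for *Lyz2* (-0.28), *Anxa1* (-0.0113), *Pdgfa* (1.79), *H2-Ab1* (-0.0268), *Gdf15* (3.21), *Ifitm3* (0.57), *Ifitm6* (1.78), *Pfkp* (-0.94), *Srxn1* (-0.39), *Clec4a2* (-0.46), and *Clec12a* (0.11). The cause of these changes was not tested. Of 492 list medians 479 stayed within intervals built from the spread between the genes of the list, from lowest to highest gene in short lists. These do not measure counting error, so staying within them says little of stability. Of 5098 log2 ratios of named genes, 2290 stayed within their counting intervals. Another 2796 moved outside with the call's sign kept or no call made, and 12 turned. The limits of 20 and 200 CPM cannot change a ratio, so their 300 agreements each, within the 2290, were fixed in advance. Counting intervals are narrow at this depth and say nothing of differences between mice. The 363 graft cells, pooled from 5 mice, limit every graft value, and no table maps the hashtags of the graft cells to mice, so a split of these cells by hashtag was not tried. The graft cells came from tissue while the cultures were not grown in tissue, so every difference holds source, handling, and library together. *Trem2* was both the basis of selection and a measured gene, so its own level was set by the selection, and cells with little RNA were less likely to be selected. RNA levels are not protein levels.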

Other observations

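Among cells that carry no *Trem2* UMI and meet the other criteria, 8.16% of VD-Mac cells had a *Cyp24a1* UMI at equal depth, and 88.4% a *Ccr7* UMI, beside 43.5% and 50.3% of the Trem2-positive cells. Of the culture cells with at least 2 *Trem2* UMIs that passed the limits on *S100a8*, *S100a9*, and Cd3 genes, *Mki67* or *Top2a* had a UMI in all but 1765 of 3228 in VD-Mac and all but 1089 of 2663 in Co-Mac, while in the graft 363 of 448 had none.

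Genes of DNA replication and chromatin were not at 0 in the selected cells: *Pcna*, a sliding clamp of DNA replication, stood at 124, 25.4, and 42.1 CPM in the graft, VD-Mac, and Co-Mac, and *Hmgb2*, a chromatin protein gene, at 142, 105, and 82.2 CPM.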
